A study of Mus musculus with 10 samples.

Results

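MHC class I molecules, the surface proteins that show peptides from inside a cell to CD8+ T cells, were followed here through 10 genes: the heavy chains H2-K1, H2-D1, H2-T23, H2-Q4 and H2-Q7, the light chain B2m, the peptide loading genes Tap1, Tap2 and Tapbp, and the class I transactivator Nlrc5. They were taken by gene symbol from a table of 45777 genes, and all 10 were present and passed the filter on low counts that left 21523 genes for testing. The table came from whole MC38 tumors, grown from a mouse colon carcinoma cell line under the skin of the flank of wild-type female C57BL/6 mice, fixed in formalin and embedded in paraffin. Mice of the YH29407+aPD-1 combination group received both the IDO1 inhibitor YH29407 and an antibody against PD-1 (3 libraries, replicates 2, 3 and 4), those of the YH29407 group received YH29407 alone (3 libraries, replicates 1, 3 and 4), those of the aPD-1 group received the antibody alone (2 libraries, replicates 3 and 4), and those of the control group received neither (2 libraries, replicates 3 and 5). IDO1 breaks down tryptophan, and PD-1 is an inhibitory receptor of activated T cells. The labels do not say which mouse gave each library, so the p-values below measure the spread between these libraries.

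In the class I pathway, cytosolic proteins are cut into peptides by the proteasome, carried into the endoplasmic reticulum by the transporter made of Tap1 and Tap2, and placed on a new heavy chain that the tapasin protein, encoded by Tapbp, holds beside the transporter. The heavy chain reaches the surface only together with beta-2-microglobulin, encoded by B2m. H2-K1 and H2-D1 encode the classical heavy chains, which show a wide range of peptides to CD8+ T cells. H2-T23, H2-Q4 and H2-Q7 encode non-classical heavy chains: that of H2-T23, Qa-1, shows a peptide cut from the leaders of other class I chains to CD94/NKG2 receptors of NK cells and CD8+ T cells, and that of H2-Q7 belongs to the Qa-2 antigens. In many tumors class I genes are low, and interferon gamma is known to raise them, in part through Nlrc5.

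In the GRCm38.p6 (mm10) assembly of RefSeq, 8 of the 10 genes lie in the MHC on chromosome 17: Tapbp at chr17:33919478-33929290, H2-K1 at chr17:33996012-34000619, Tap1 at chr17:34187556-34197225, Tap2 at chr17:34204479-34216321, H2-D1 at chr17:35263094-35267497, H2-Q4 at chr17:35379617-35384674, H2-Q7 at chr17:35439140-35443773 and H2-T23 at chr17:36029977-36032701. B2m lies apart at chr2:122147687-122153082 and Nlrc5 at chr8:94434335-94527272. RefSeq promoter windows of 300 bases, running from 250 bases before to 50 after the transcription start, were available for 8 of the 10 genes, all but Tap2 and Nlrc5.

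Class I promoters are known for 3 short elements: enhancer A, bound by NF-kB, an interferon-stimulated response element, bound by IRF proteins, and the SXY module, on which Nlrc5 assembles. The windows were searched on both strands for GGGATTNCC (enhancer A), TTTCNNTTC or TTTCNNTTT (interferon element), and on the gene's own strand for TGACG followed by ATTGG with their starts 20 to 30 bases apart (X2 and Y boxes of the module). The letters were chosen with class I promoters in view. The upstream stretches that hold matches are shown because they show how closely the heavy chain genes resemble each other and where they differ in these letters. Whether the letters bear on the values below was not tested. They are printed 5′ to 3′ on the strand of the gene, with the matches in capitals:
H2-K1 (chr17:34000348-34000469, minus strand): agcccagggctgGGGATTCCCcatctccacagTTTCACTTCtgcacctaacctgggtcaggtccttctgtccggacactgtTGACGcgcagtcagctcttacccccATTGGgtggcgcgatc
H2-D1 (chr17:35262912-35263034, plus strand): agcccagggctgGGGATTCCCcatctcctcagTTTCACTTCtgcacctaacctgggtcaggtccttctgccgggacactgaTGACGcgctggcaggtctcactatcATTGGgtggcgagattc
H2-Q7 (chr17:35439011-35439131, plus strand): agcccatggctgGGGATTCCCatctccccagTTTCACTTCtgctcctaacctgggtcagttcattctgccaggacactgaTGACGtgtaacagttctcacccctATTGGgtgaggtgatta
H2-Q4 (chr17:35379432-35379484, plus strand): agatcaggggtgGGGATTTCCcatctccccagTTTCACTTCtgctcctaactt
H2-T23 (chr17:36032805-36032837, minus strand): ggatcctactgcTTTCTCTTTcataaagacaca
B2m (chr2:122147537-122147650, plus strand): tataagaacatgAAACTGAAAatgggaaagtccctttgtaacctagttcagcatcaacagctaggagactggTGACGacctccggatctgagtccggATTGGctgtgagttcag

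The classical genes H2-K1 and H2-D1 were identical at 109 of the first 122 bases of these stretches (89.3%, compared without gaps). Enhancer A started 20 bases before the interferon element in H2-K1, H2-D1 and H2-Q4 and 19 bases before it in H2-Q7. The Y box started 25 bases after X2 in H2-K1, H2-D1 and B2m and 24 bases after it in H2-Q7. Of 32851 promoter windows in the table, 0.938% held enhancer A, 16.5% the interferon element and 0.25% the spaced pair of X2 and Y. All 3 together were found in 4 windows, 0.0122% of them: H2-D1, H2-Q7 and both annotated starts of H2-K1, which share the stretch printed. H2-T23 matched only the interferon element, and H2-Q4 had no match to the spaced pair. B2m had no match to GGGATTNCC and had its interferon element on the other strand. Tap1 and Tapbp matched none of the 3. Other spellings of these elements were not searched, so a missing match does not show that an element is absent. A match is a description of letters in this window and no measurement of binding.

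**Figure D1:**
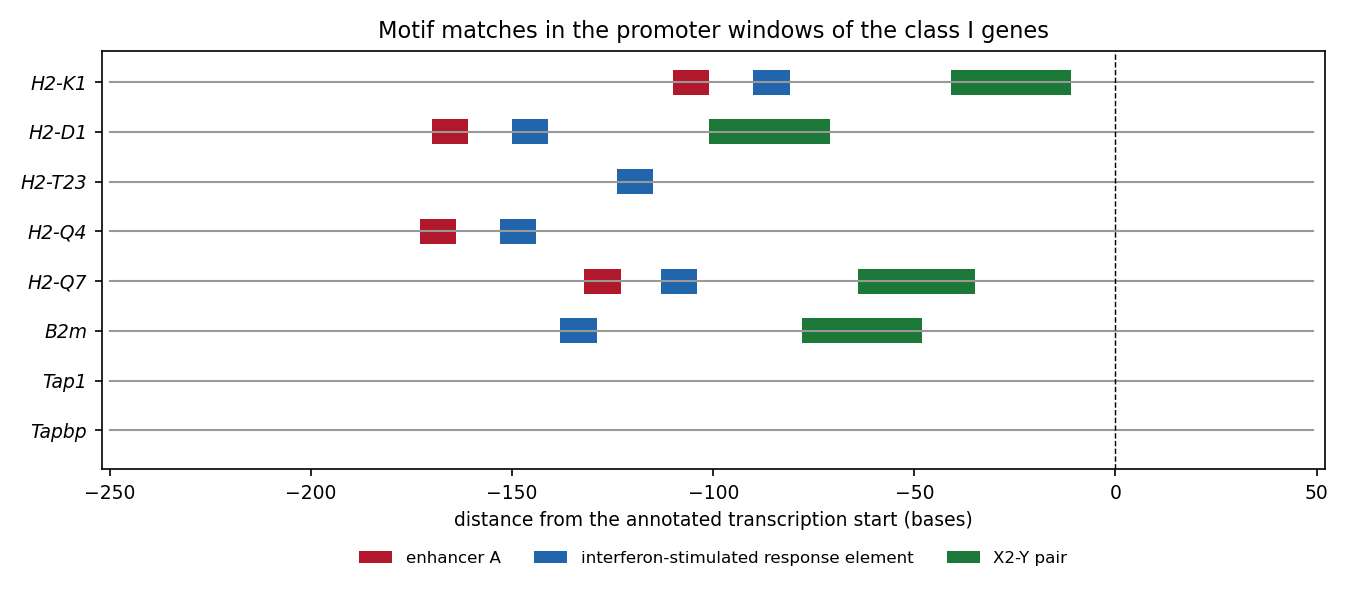
Positions of the matches in the promoter windows of the 8 class I genes with a window, as distance in bases from the annotated transcription start (dashed line). Boxes mark matches to enhancer A, the interferon-stimulated response element and the spaced X2 and Y boxes. H2-K1, H2-D1 and H2-Q7 match all 3 in the same order, and H2-T23 matches the interferon element only.

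Total counts ran from 56170804 to 76287659 per library, lowest in combination replicate 4. That library stood apart, with 2.28% of counts on mitochondrial mRNAs, where the other 9 libraries had 0.413% to 0.56%. Combination replicates 2 and 3 carried keratinocyte genes, whose 10 markers summed to 552 and 169 CPM (counts scaled to library size), against 2.11 to 12 CPM in the other 8 libraries. Values without combination replicate 4 are given beside the results that lean on it. The label "colon cell" could be checked only weakly, since 5 colon markers summed to 1.48 to 7.69 CPM and 5 epithelial markers to 2.02 to 12.7 CPM. In whole tumors, fewer cells of a type and less RNA per cell cannot be told apart.

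Levels between genes were compared on the TPM scale, which corrects counts for transcript length and library size. Averaged over the 10 libraries, H2-D1 stood at 1874 ± 431 TPM (SD, n = 10) and H2-K1 at 1799 ± 292 TPM, the 35th and 38th highest of all genes. The pair did not differ beyond their spread, with H2-D1 above H2-K1 in 6 of 10 libraries. B2m followed at 705 ± 57.6 TPM and H2-Q4 at 287 ± 77.9 TPM, each above the next gene in all 10 libraries. Tapbp (151 ± 39.2 TPM), Tap1 (147 ± 16.5 TPM), Tap2 (127 ± 20.6 TPM), Nlrc5 (113 ± 26 TPM) and H2-Q7 (102 ± 28.6 TPM) formed a group in which neighbours overlapped. Tapbp was above Tap1 in 3 libraries, Tap1 above Tap2 in 9, Tap2 above Nlrc5 in 6 and Nlrc5 above H2-Q7 in 7. H2-T23 was the lowest at 67.4 ± 27.7 TPM and below H2-Q7 in all 10 libraries. It was also the most variable, with a 3.01-fold range between its lowest and highest library, while B2m, with a 1.36-fold range, was the steadiest.

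The main comparison, the YH29407+aPD-1 combination group against the YH29407 group, asks what the antibody added to the inhibitor. In it the 3 non-classical heavy chains had the largest values of the 10 genes. H2-T23, H2-Q4 and H2-Q7 were 2.16-fold, 1.73-fold and 1.68-fold higher with the combination, and for these 3 genes the libraries of the 2 groups did not overlap. The classical chains, B2m, the loading genes and Nlrc5 had libraries that overlapped between the groups. At an unadjusted p under 0.05 in edgeR's quasi-likelihood test, 3 of 10 genes were higher, against 10.6% of all genes tested, and 0 of 10 lower, against 6.84%. After Benjamini-Hochberg adjustment over 21523 genes, 0 of 10 passed 0.05, and 0% of all genes did. DESeq2 called 1435 of all genes (6.71%), H2-T23 and H2-Q4 among them. Limma-voom with quality weights called 8090 (37.6%), among them H2-T23, H2-Q4, H2-Q7 and B2m, so 4 of 10 lies near its share of all genes.

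H2-T23, the Qa-1 gene, stood at 122, 98.3 and 88.5 TPM in combination replicates 2, 3 and 4, against 44.8, 64.8 and 44.2 TPM in YH29407 replicates 1, 3 and 4. It was at 44.7 and 52.1 TPM with aPD-1 alone and at 74.2 and 40.4 TPM in the controls. All 3 combination libraries lay above all 7 others, as in CPM for 4.78% of all genes tested, and the 2 controls spanned the range of the other 5. The group means were 103 ± 17.1 TPM with the combination and 51.3 ± 11.7 TPM with YH29407 (SD, n = 3 each). The edgeR log2 fold change was 1.11 (SE 0.26, 95% interval 0.51 to 1.71, adjusted p = 0.203). Leaving out each library in turn kept it between 1.04 and 1.35, with an unadjusted p under 0.05 in 10 of 10 fits.

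H2-Q4, a second non-classical chain of the Q region, stood at 413, 321 and 281 TPM with the combination, against 162, 262 and 209 TPM with YH29407. With aPD-1 alone it was at 321 and 389 TPM, and in the controls at 287 and 227 TPM. The combination and YH29407 libraries did not overlap, while those of the aPD-1 group fell among the combination libraries. The means were 339 ± 67.8 TPM with the combination and 211 ± 50.2 TPM with YH29407. The log2 fold change was 0.79 (SE 0.21, 95% interval 0.31 to 1.27, edgeR adjusted p = 0.214), and it stayed between 0.67 and 1.01 when each library was left out.

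H2-Q7, a Qa-2 gene, stood at 156, 111 and 148 TPM with the combination, against 91.1, 104 and 72.5 TPM with YH29407. It was at 84.5 and 84.9 TPM with aPD-1 alone and at 79.6 and 88.3 TPM in the controls. As for H2-T23, all 3 combination libraries lay above all 7 others, though replicate 3 of the combination and replicate 3 of YH29407 were close. The log2 fold change was 0.75 (SE 0.24, 95% interval 0.21 to 1.29, edgeR adjusted p = 0.229), and 0.55 to 1.0 when each library was left out. Near-identical copies could share its reads. H2-Q8 and H2-Q9 had no row in the table, so the sums below leave them out. Of all windows of 100 bases, the read length, in its annotated transcripts, 17.2% also occurred in another gene, first H2-Q6 at 9.34% and then H2-Q5 at 7.87%, against 13.9% for H2-Q4 and 7.28% for H2-T23. How the counting shared such reads is not given in the sources used here. Summed as 1 feature with H2-Q1, H2-Q5 and H2-Q6, the genes that share most of its windows, H2-Q7 had a log2 fold change of 0.67 (SE 0.25, edgeR adjusted p = 0.255), a sum chosen after seeing the data. The sum of H2-Q4, H2-Q6, H2-Q7 and H2-Q10, in which H2-Q4 had more counts than H2-Q7, had a value of 0.76 (SE 0.2, edgeR adjusted p = 0.213). The gene that shared most windows with H2-Q4 was Gm11131, at 11.1%. It is in neither sum, so neither covers that sharing.

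**Figure D2:**
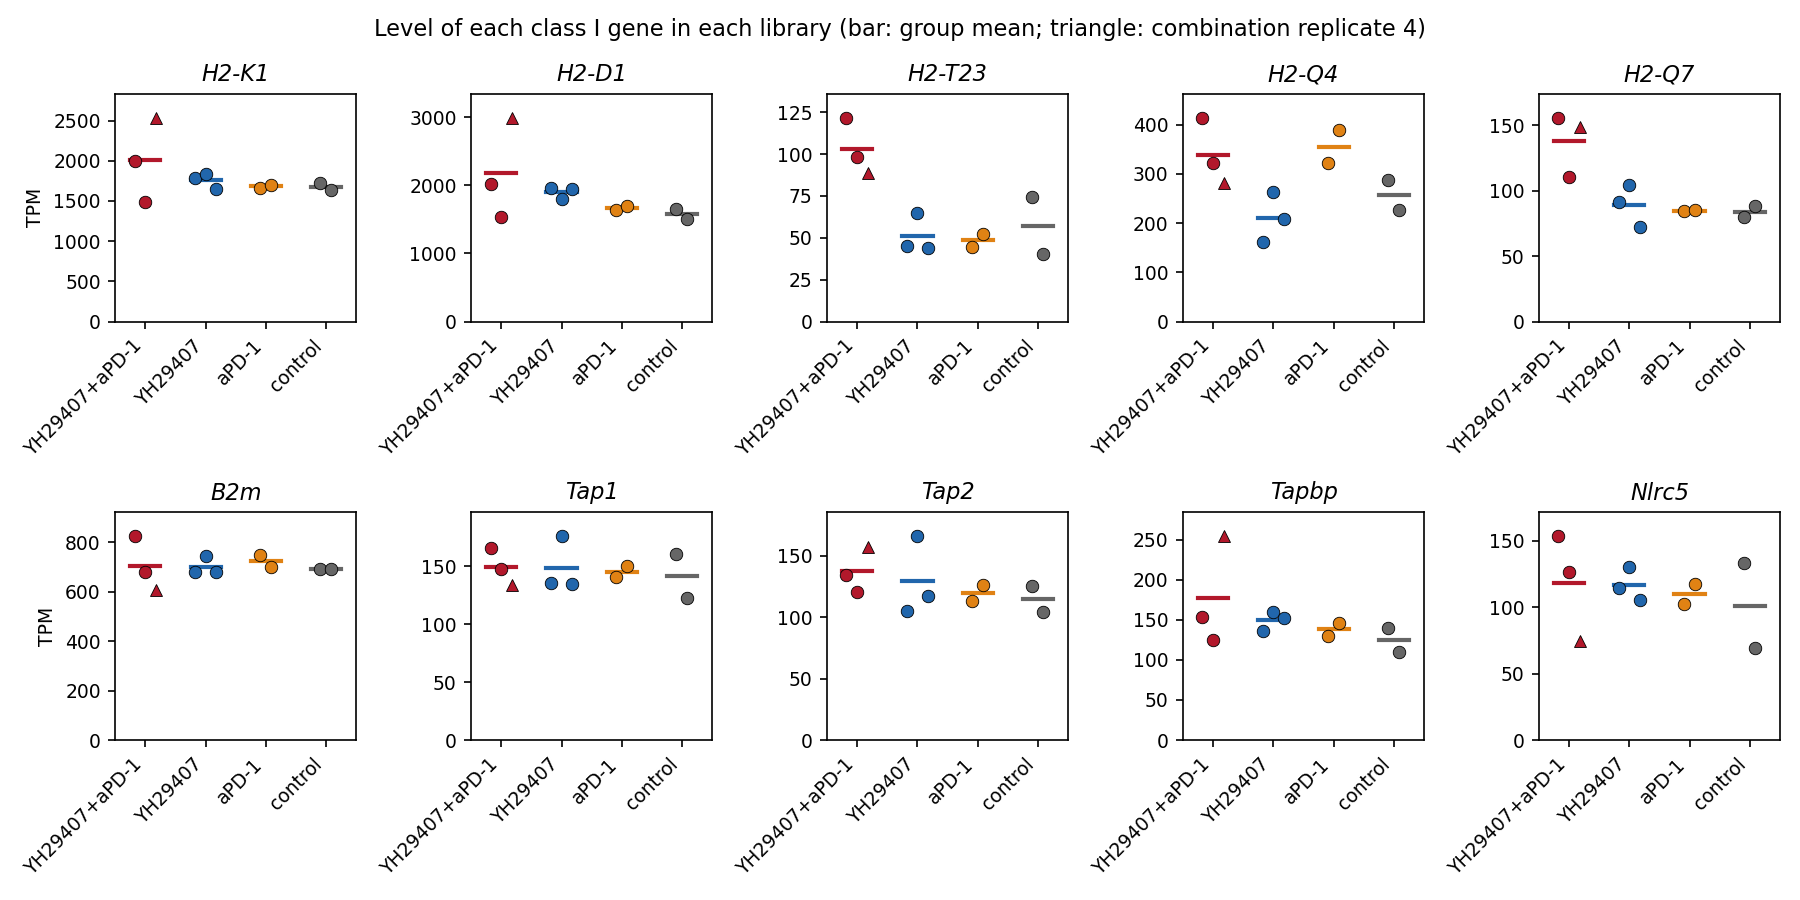
TPM of each of the 10 class I genes in each library, with the groups in the order YH29407+aPD-1, YH29407, aPD-1 and control. Points are libraries, bars are group means, and the triangle is combination replicate 4. H2-T23 and H2-Q7 are highest in the 3 combination libraries, while for H2-K1, H2-D1 and Tapbp only the triangle stands out.

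The classical chains gave another picture. H2-K1 stood at 2001, 1484 and 2533 TPM in combination replicates 2, 3 and 4, against 1783, 1833 and 1649 TPM with YH29407. H2-D1 stood at 2019, 1531 and 2989 TPM with the combination, against 1958, 1806 and 1942 TPM with YH29407. For both genes, replicate 3 of the combination was below every YH29407 library and replicate 4 was the highest of all 10. The log2 fold changes were 0.34 (SE 0.25) for H2-K1 and 0.37 (SE 0.3) for H2-D1, and without combination replicate 4 they were -0.03 and -0.11. With aPD-1 alone, H2-K1 was at 1663 and 1697 TPM and H2-D1 at 1634 and 1703 TPM, and in the controls they were at 1717 and 1633 TPM and at 1649 and 1505 TPM. Outside the combination group, H2-K1 thus kept within 1633 to 1833 TPM.

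B2m, the light chain shared by all of these heavy chains, stood at 824, 681 and 607 TPM with the combination, against 679.8, 744 and 679.6 TPM with YH29407. It was at 750.4 and 699.9 TPM with aPD-1 and at 690.5 and 692 TPM in the controls. The groups overlapped, and replicate 4, where the classical chains were highest, had the lowest B2m of all libraries in TPM. That place depends on the scale, since in CPM, the scale of the counts tested, B2m stood at 292, 234 and 279 CPM with the combination, against 245, 262 and 237 CPM with YH29407, and replicate 4 was the second highest of the 10. The log2 fold change against YH29407 was 0.11 (SE 0.14), with a 95% interval of -0.2 to 0.43, so a difference as large as that of H2-T23 lies outside the interval for B2m.

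Among the loading genes, Tapbp, which encodes tapasin, stood at 153, 124 and 254 TPM with the combination, against 136, 159.5 and 152 TPM with YH29407. Its log2 fold change was 0.43 (SE 0.34), and -0.11 without combination replicate 4. Tap1, one chain of the peptide transporter, stood at 166, 148 and 134 TPM with the combination, against 136, 176 and 135 TPM with YH29407 (log2 fold change 0.12, SE 0.17). Tap2, the other chain, stood at 135, 120.1 and 157 TPM with the combination, against 105, 166 and 117 TPM with YH29407 (log2 fold change 0.24, SE 0.25, and -0.03 without combination replicate 4). All 3 genes overlapped between the groups. With aPD-1 alone, Tap1 was at 141 and 150.1 TPM, Tap2 at 113 and 126 TPM and Tapbp at 130.3 and 146 TPM. In the controls, Tap1 was at 161 and 123 TPM, Tap2 at 125 and 104 TPM and Tapbp at 140.2 and 110.1 TPM. For each of the 3, control replicate 5 was the lowest of the 10 libraries in TPM. In CPM, Tap2 was lowest in YH29407 replicate 1, at 109 CPM, against 114 CPM in control replicate 5.

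Nlrc5, the transactivator that binds class I promoters through the SXY module, stood at 153, 127 and 74.8 TPM with the combination, against 114, 130.2 and 105 TPM with YH29407. It was at 102 and 118 TPM with aPD-1 alone and at 133 and 69 TPM in the controls. Replicate 4, with the highest H2-K1 and H2-D1, thus had the second lowest Nlrc5. The log2 fold change was 0.10 (SE 0.24), with a 95% interval of -0.45 to 0.66.

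Set against YH29407, the combination gave the 10 genes a median log2 fold change of 0.36, against 0.04 over all genes tested, with 10 of 10 values above 0. This median leaned on combination replicate 4: it was 0.08 without that library and 0.66 without combination replicate 3. Without combination replicate 4, the values of H2-T23, H2-Q4 and H2-Q7 were 1.09, 0.79 and 0.55, each with an unadjusted p under 0.05 in edgeR. With replicate 4 as the lone combination library, which is then assumed to vary like the other groups, they were 1.05, 0.68 and 0.98.

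Set against other class I genes of the same library, the non-classical chains gave these values. Per 100 TPM of B2m, H2-T23 stood at 14.8, 14.4 and 14.6 TPM with the combination, against 6.59, 8.71 and 6.5 TPM with YH29407, 5.96 and 7.44 TPM with aPD-1 and 10.7 and 5.83 TPM in the controls. The 3 combination values lay close together and above the other 7. Per 100 TPM of H2-K1 and H2-D1 together, H2-T23 stood at 3.03, 3.26 and 1.6 TPM with the combination, against 1.2, 1.78 and 1.23 TPM with YH29407. On that scale replicate 4 fell among the YH29407 libraries. The 3 non-classical genes made up 14.7%, 15% and 8.58% of the TPM of all 5 heavy chains with the combination, against 7.38%, 10.6% and 8.31% with YH29407, 12% and 13.4% with aPD-1 and 11.6% and 10.2% in the controls. These ratios are a description, and whether H2-T23 differed more than H2-K1 was not tested.

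**Figure D3:**
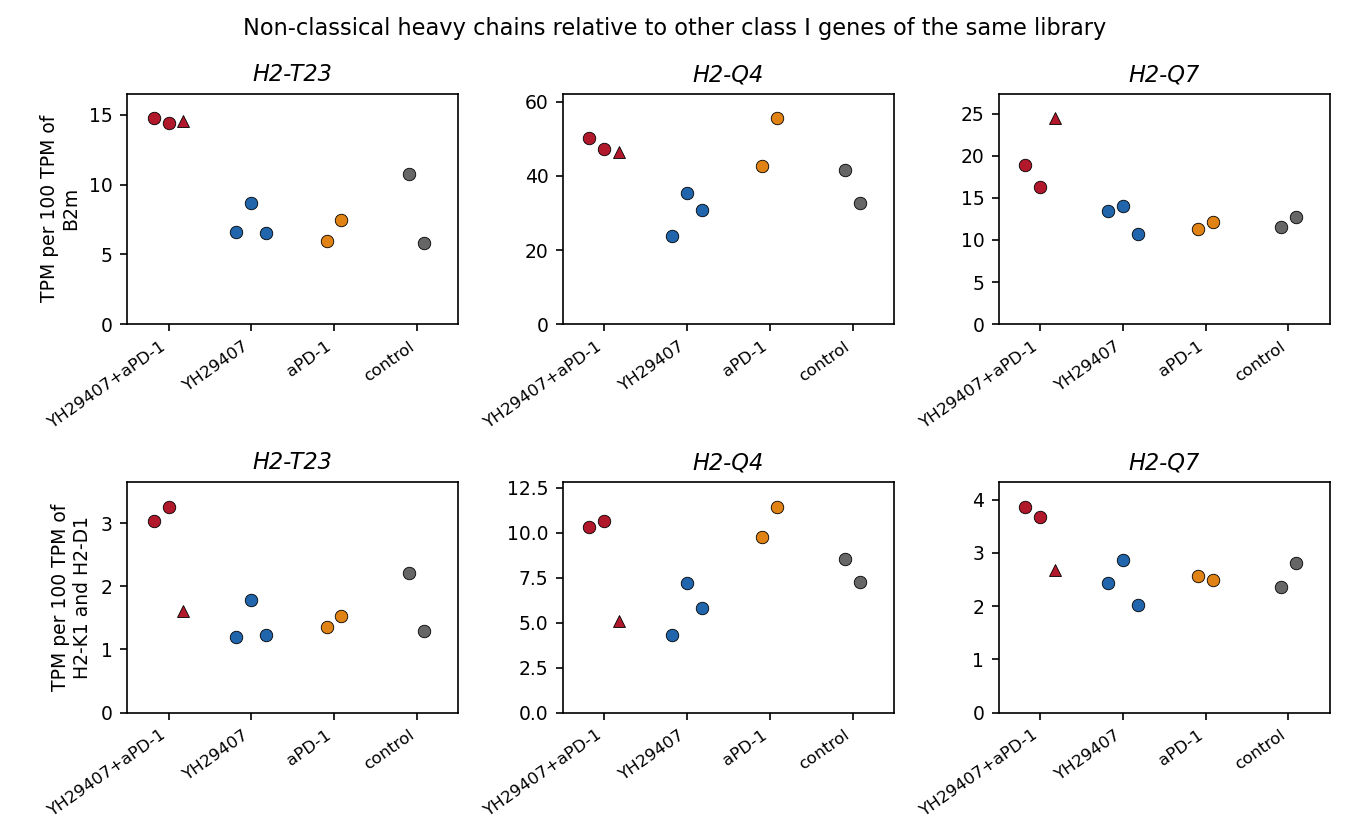
TPM of H2-T23, H2-Q4 and H2-Q7 per 100 TPM of B2m (upper row) and per 100 TPM of H2-K1 and H2-D1 together (lower row) in each library, with the groups in the order YH29407+aPD-1, YH29407, aPD-1 and control. Points are libraries and the triangle is combination replicate 4, which stays with the other combination libraries for H2-T23 per B2m and leaves them in the lower row.

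The combination was next set against the aPD-1 and control groups. In these comparisons and in the main one the combination libraries are shared, so they are not independent. Against aPD-1 alone, H2-T23 was 2.21-fold higher (log2 fold change 1.14, SE 0.3, edgeR adjusted p = 0.565) and H2-Q7 1.72-fold higher (0.78, SE 0.27, edgeR adjusted p = 0.565). H2-Q4 had a log2 fold change of -0.01 (SE 0.23), with a 95% interval of -0.54 to 0.52. Without aPD-1 replicate 3 the values of H2-T23 and H2-Q7 were 0.98 and 0.71, and without aPD-1 replicate 4 that of H2-Q7 was 0.81, none past an unadjusted p of 0.05. The other 7 genes lay between 0.02 and 0.51, and the median of all 10 was 0.34, against 0.10 over all genes. Without combination replicate 4, H2-K1, H2-D1, Tap2 and Tapbp were at 0.02, 0.04, 0.03 and -0.05 against aPD-1. With all libraries, 2 of 10 were higher at an unadjusted p under 0.05, against 5.76% of all genes, and 0 lower, against 2.34%.

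Against the controls, H2-T23 was 1.85-fold higher (log2 fold change 0.89, SE 0.3, edgeR adjusted p = 0.46) and H2-Q7 1.72-fold higher (0.78, SE 0.27, edgeR adjusted p = 0.46). H2-Q4 had a log2 fold change of 0.44 (SE 0.24). The H2-T23 value rested on which control was used: it was 0.49, no longer past an unadjusted p of 0.05, without control replicate 5 and 1.32 without control replicate 3. H2-Q7 was at 0.65 without control replicate 3 and 0.82 without control replicate 5, past that threshold in neither. The other 7 genes lay between 0.07 and 0.62, and the median of all 10 was 0.39, against 0.10 over all genes. Without combination replicate 4, H2-K1, H2-D1, Tap2 and Tapbp were at -0.01, 0.10, 0.08 and 0.08 against the controls. With all libraries, 2 of 10 genes were higher, against 6.98% of all genes, and 0 lower, against 3.12%. After adjustment 0 of 10 passed in either comparison in edgeR. DESeq2 called 326 of all genes (1.52%) against aPD-1, H2-T23 among them. Against control it called 435 (2.03%), with 0 of the 10.

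Groups without overlap were also counted in CPM. H2-T23 and H2-Q7 were higher in all 3 combination libraries than in all other 7, as were 4.78% of all genes tested. Against YH29407 the 3 non-classical genes did not overlap, as 10.4% of all genes. Against the controls the same 3 genes did not overlap, against 15.6%, and against aPD-1 only H2-T23 and H2-Q7, against 14.9%. None of the 10 genes was lower without overlap in any of these.

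**Figure D4:**
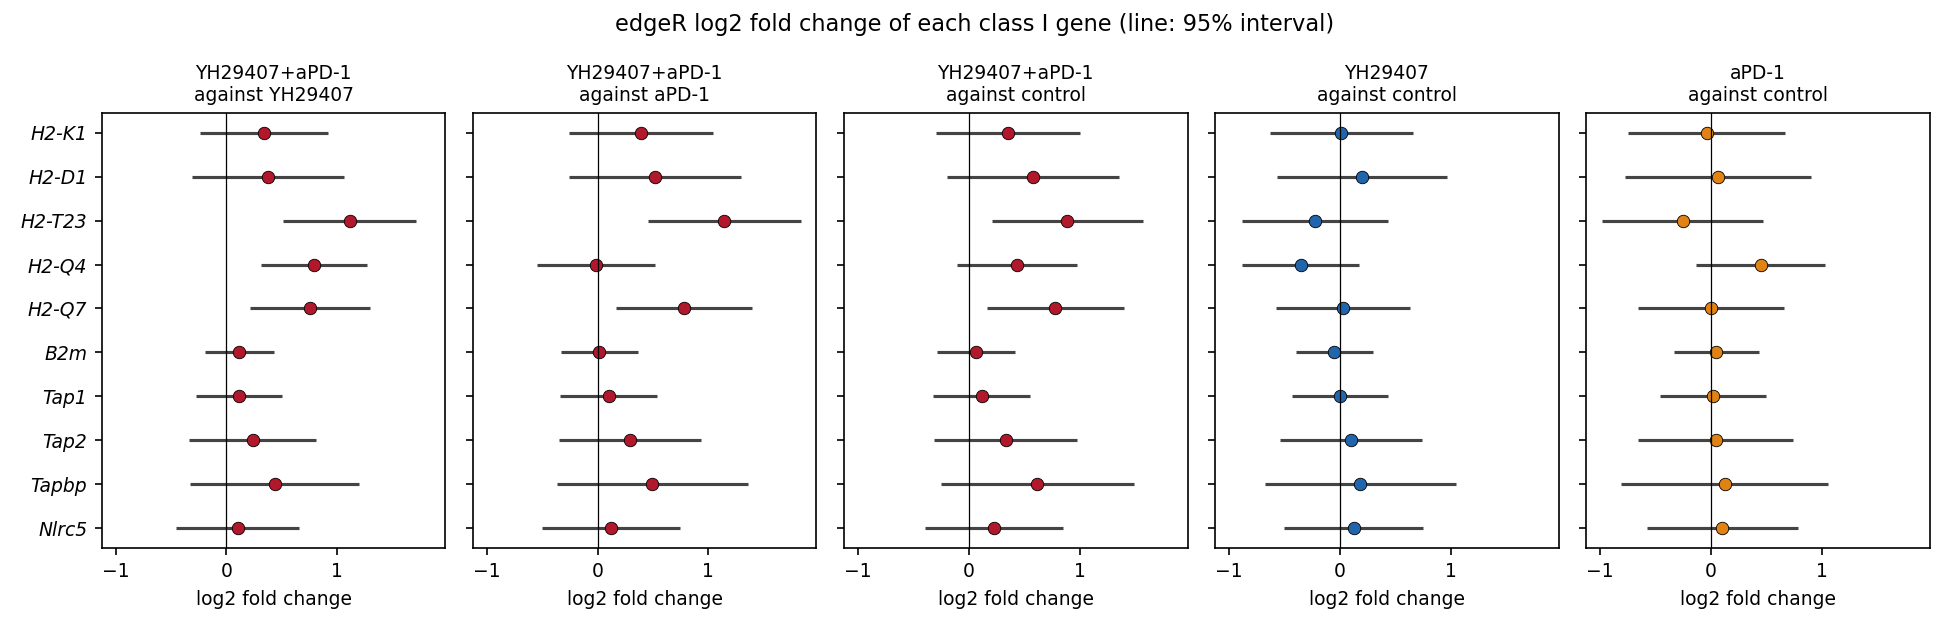
edgeR log2 fold change of each of the 10 class I genes in 5 comparisons, with the first-named group on top of the fold. Points are estimates and lines 95% intervals. Only H2-T23, H2-Q4 and H2-Q7 have intervals above 0, for H2-Q4 against YH29407 only, and all intervals of the 2 single treatments against control cross 0.

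With either agent alone, none of the 10 genes passed the test against the controls. With YH29407 alone, the log2 fold changes against control ran from -0.35 for H2-Q4 to 0.20 for H2-D1, with a median of 0.02, against 0.01 over all genes. H2-T23 had a value of -0.22 (SE 0.29), which changed sign, to 0.25, without control replicate 3. At an unadjusted p under 0.05, 0 of 10 genes were higher, against 3.04% of all genes, and 0 lower, against 1.51%. With aPD-1 alone, values ran from -0.26 for H2-T23 to 0.45 for H2-Q4 (SE 0.26), with a median of 0.05, against 0 over all genes. The H2-T23 value was 0.22 without control replicate 3. Again 0 of 10 were higher, against 1.39%, and 0 lower, against 1.32%. DESeq2 and limma-voom also called 0 of the 10 after adjustment in both comparisons, with 157 and 55 of all genes called by DESeq2 for YH29407 and aPD-1, and 173 and 1 by limma-voom.

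Averaged over mice with and without YH29407, aPD-1 went with higher H2-Q4, by 0.62 on the log2 scale (SE 0.17, edgeR adjusted p = 0.503). H2-T23 had a value of 0.43 and H2-Q7 of 0.38, and the other 7 lay between 0.07 and 0.28. Without combination replicate 4, H2-K1, H2-D1, Tap2 and Tapbp were at -0.03, -0.02, 0.01 and 0.01. With all libraries, 1 of 10 genes was higher, against 5.17% of all genes, and 0 lower, against 3.65%. The interaction, which asks whether the difference made by aPD-1 was larger in YH29407-treated mice, was 1.37 for H2-T23 (SE 0.42, edgeR adjusted p = 0.722), 0.75 for H2-Q7 and 0.34 for H2-Q4. It passed an unadjusted p under 0.05 for 1 of 10 genes, against 3.78% of all genes higher, and for 0 lower, against 2.39%. The H2-T23 interaction was 0.85 without control replicate 3 and 1.21 without aPD-1 replicate 3, past that threshold in neither. After adjustment 0 of 10 passed in either in edgeR. DESeq2 called 340 of all genes (1.59%) for the average, H2-Q4 among them. For the interaction it called 186 (0.869%), with 0 of the 10.

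The same libraries also differed in markers of other cells. The 10 MHC class II genes, which present peptides to CD4+ T cells, summed to 410.2, 431 and 234 CPM with the combination, against 159, 142 and 142 CPM with YH29407, 200.5 and 261 CPM with aPD-1 and 71.7 and 200.5 CPM in the controls. The class II transactivator Ciita had a log2 fold change of 2.31 (SE 0.46) against YH29407. Summed dendritic cell markers ran from 85.7 to 169 CPM with the combination, against 51.1 to 69.6 CPM with YH29407, 58.2 to 58.8 CPM with aPD-1 and 63 to 74.8 CPM in the controls. Of these, 4 of 6 were higher at an unadjusted p under 0.05, which 10.6% of all genes passed higher. T cell markers ran from 27 to 81.3 CPM, against 9.54 to 35.8 CPM with YH29407, and 8 of 12 were higher. They ran from 23.7 to 25.7 CPM with aPD-1 and from 15.7 to 17.7 CPM in the controls. In combination replicate 4, leukocyte (182 CPM), NK cell (11.6 CPM), macrophage (451 CPM) and endothelial sums (71.4 CPM) were the lowest of all libraries. Combination replicates 2 and 3 had leukocyte sums of 458 and 655 CPM, against 309 to 348 CPM with YH29407 and 275 to 315 CPM with aPD-1. The controls ran from 337 to 500 CPM, with control replicate 3 above combination replicate 2. Skeletal muscle markers ran from 618 to 1286 CPM, against 12.9 to 116 CPM with YH29407, and 6 of 8 were higher. They ran from 64.9 to 452 CPM with aPD-1 and from 48.6 to 400 CPM in the controls. Fibroblast markers ran from 1921 to 2909 CPM, against 1372 to 1858 CPM with YH29407, with 2 of 6 higher. They ran from 1462 to 1486 CPM with aPD-1 and from 1644 to 2444 CPM in the controls, which overlapped the combination. The fibroblast genes did not share a direction: Col1a1 (1.63), Col1a2 (1.94) and Dcn (1.16) had log2 fold changes above 0 and Lum (-1.67), Col3a1 (-0.38) and Pdgfra (-0.12) below 0. Of keratinocyte markers 9 of 10 were higher, with a median log2 fold change of 7.74, carried by combination replicates 2 and 3, and of mitochondrial mRNAs 10 of 13, or 1 of 13 without combination replicate 4. The part of these cells and of the mitochondrial share in the values of H2-T23, H2-Q4 and H2-Q7 was not tested.

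**Figure D5:**
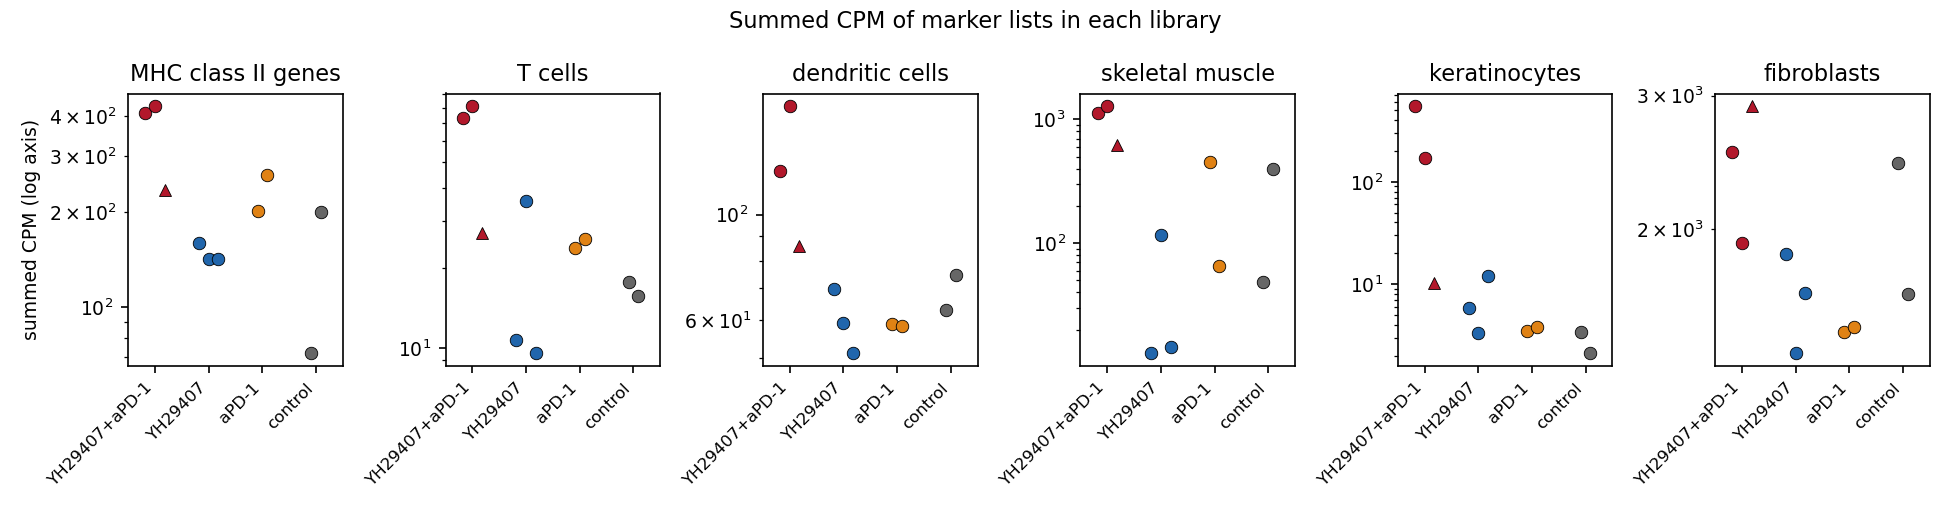
Summed CPM (log axis) of MHC class II genes and of markers of 5 cell types in each library, with the groups in the order YH29407+aPD-1, YH29407, aPD-1 and control. Points are libraries and the triangle is combination replicate 4. Class II, dendritic cell, skeletal muscle and fibroblast sums do not overlap between the combination and YH29407 groups, whereas those of T cells and keratinocytes do.

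Genes around the 10 in the same pathway were then counted between the combination and YH29407 groups, at the same unadjusted p, which 10.6% of all genes passed higher and 6.84% lower. The fit without combination replicate 4, applied to these lists after seeing the data, had 10.8% higher and 9.11% lower. Of 25 other class I and class I-like heavy chains tested, 3 were higher and 1 lower, with a median log2 fold change of 0.47, shares near those of all genes. Without combination replicate 4, 2 of 22 were higher, 1 was lower and the median was 0.19, and H2-Q5 (0.96) and Cd1d1 (-1.16) did not pass. The 3 were H2-M2 (4.48, SE 1.13), H2-Q5 (1.26, SE 0.44) and H2-Q2 (1.39, SE 0.55), the lower one was the lipid-presenting Cd1d1 (-1.21, SE 0.44), and in every library all 4 were below 40.4 TPM, the lowest H2-T23 value. None of 9 further loading complex and endoplasmic reticulum helpers passed in either direction (median -0.11). The peptide-trimming Erap1 had a value of -0.66 (SE 0.37), and -0.31 without combination replicate 4, and the chaperone calreticulin, encoded by Calr, 0.23 (SE 0.13).

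None of 7 immunoproteasome and activator genes passed either (median -0.18). Psmb10, an interferon-induced catalytic subunit, stood at 324, 245 and 850.2 TPM with the combination, against 241, 366 and 224 TPM with YH29407, again highest in replicate 4 (log2 fold change 1.01, SE 0.52, and 0.03 without that library). Of 7 cytosolic peptidases, which trim or destroy peptides before transport, 1 was lower, Thop1 (-0.50, SE 0.19), and 0 of the 7 values were above 0 (median -0.45). Their sum was 1317, 1620 and 771 CPM with the combination, against 1643, 1413 and 1787 CPM with YH29407, lowest in replicate 4, and without that library 2 of 7 values were above 0 and the median was -0.16.

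Of 17 partners and regulators of class I transcription, 2 were higher, 1 was lower and the median was -0.04. Without combination replicate 4, 3 were higher and 1 lower, and the median was 0.16. Relb, an NF-kB subunit, stood at 90.1, 71.5 and 119 TPM with the combination, against 29.1, 60 and 39.7 TPM with YH29407 (log2 fold change 1.29, SE 0.35, edgeR adjusted p = 0.215), with no overlap. Irf8, an interferon regulatory factor of myeloid cells, stood at 24.3, 26.2 and 14 TPM, against 10.1, 15.3 and 10.7 TPM with YH29407 (0.91, SE 0.23, edgeR adjusted p = 0.213). Rfx5, a subunit of the factor that holds Nlrc5 on the SXY module, was the lower one (-0.39, SE 0.15).

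Interferon gamma and its receptor pathway had 1 of 7 genes higher, the feedback inhibitor Socs1 (2.32, SE 0.77), at 48.2, 28.8 and 176 TPM with the combination, against 13.1, 35.3 and 13.3 TPM with YH29407. Replicate 3 of the combination lay below replicate 3 of YH29407 there, and without combination replicate 4 the Socs1 value was 0.91 (SE 0.48) and did not pass. Of 13 interferon gamma response genes, Ciita was higher and Ido1 lower (-2.46, SE 0.61), and the median was 0.02. Without combination replicate 4, 3 of the 13 were higher and 1 lower, 12 of 13 values were above 0 and the median was 0.41. In the 7 pathway genes, 3 were then higher and the median was 0.34, against 0.06 with that library. Ido1, which encodes the enzyme that YH29407 inhibits, stood at 1.71, 1.22 and 0.833 TPM with the combination, against 11.8, 2.64 and 9.48 TPM with YH29407, 0.594 and 1.27 TPM with aPD-1 and 0.77 and 2.14 TPM in the controls. The combination libraries lay within the range of the aPD-1 and control libraries, and YH29407 replicates 1 and 4 stood above all others. Summed over the 13 genes, the level was 1605, 1491 and 368 CPM with the combination, against 902, 1704 and 820.4 CPM with YH29407, lowest in combination replicate 4.

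The 10 genes did not vary as 1 block. The Pearson r of log2 CPM between pairs of them, over 10 libraries that share the depth and group differences above, ran from -0.10 to 0.97 with a median of 0.58, and without combination replicate 4 from -0.20 to 0.90 with a median of 0.46. The lowest was between H2-D1 and Nlrc5 at -0.10, which was 0.38 without that library. The genes most like the mean of the 10 were Chpf (r = 0.99), Olfr101 (0.98), Mllt1 (0.98), Bms1 (0.98), Gm42226 (0.97), Pprc1 (0.97), Ndufa5 (0.97), H2-Q6 (0.97), Zbtb45 (0.97) and Olfr628 (0.97), over 10 libraries. Without combination replicate 4 these r ran from 0.92 for Olfr628 to 0.97 for Chpf. Of single members, Tap1 was most like H2-T10, another class I heavy chain (r = 0.95, and 0.98 without combination replicate 4), Grwd1 (0.95) and Bysl (0.94). H2-T23 was most like Lipe (0.98), Unc5c (0.97) and Mmp23 (0.96), H2-Q4 most like Med13l (0.96), 2410004B18Rik (0.95) and Mlxip (0.95), and H2-Q7 most like Fam160a2 (0.97), Gm19426 (0.97) and Gm8041 (0.97). With 21523 genes and 10 libraries, such r are a description of these libraries.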

How the data were processed

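RNA from formalin-fixed tumors was sequenced as 100-base read pairs, trimmed with Trimmomatic, mapped to mm10 with HISAT2 and counted per gene with StringTie by the authors. Their methods also name Bowtie2. The labels name both a SureSelect and a SMARTer library kit, and strand use is not given in the sources used here. The deposited table held read counts per gene, used for all tests, and the deposited TPM values, scaled to library size and transcript length by the authors, used for levels. An R notebook was not used. No count row lacked a gene symbol.

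Groups came from the treatment label. Counts were fitted with edgeR 4.0.16 (R 4.3.3; TMM, filterByExpr, quasi-likelihood test, 1 term per group, 10 libraries) and adjusted by Benjamini-Hochberg over 21523 genes. CPM used TMM library sizes. The biological coefficient of variation was 0.502. Alternatives used DESeq2 1.42.0, limma 3.58.1 (voom with quality weights, or log2(TPM + 1) and log2(TPM + 0.1)), no filter, other libraries, a replicate block and summed H2-Q counts. The gene lists without combination replicate 4 and a second H2-Q sum were added after seeing the data. Members, lists and motifs were chosen with earlier results of these data known. All 10 members are named. Of each other list, at most 4 genes are named by the smallest p against YH29407, except the fibroblast list, whose genes are all named. Likeness was ranked by Pearson r. Promoters are RefSeq GRCm38.p6, and shared windows come from GENCODE M21 transcripts.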

Additional observations from a re-analysis of the deposited data

How the results depend on the processing

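The number of the 10 genes past an adjusted p of 0.05 was 0 in edgeR in every comparison. In DESeq2 it was 2 against YH29407, 1 against aPD-1 and 1 for aPD-1 averaged, beside 6.71%, 1.52% and 1.59% of all genes. In limma-voom it was 4 against YH29407, 2 against control, 2 against aPD-1, 3 for the average and 1 for the interaction. There limma-voom called 37.6%, 10.1%, 22.1%, 15.8% and 8% of all genes. With combination replicate 4 alone, assumed to vary like the other groups, it was 4 in each of these 5, always H2-K1, H2-D1, Tapbp and H2-Q7, beside 21% to 34.4% of all genes. At an unadjusted p under 0.05, limma-voom had 6 higher genes against YH29407, 4 against control, 3 for the average and 3 for the interaction. Of all genes, 24.4%, 14.5%, 16.7% and 14.3% were higher there. It also had 1 lower for YH29407 against control, beside 2178 of 21523 genes, and 1 higher for aPD-1 against control, beside 5.19%. With combination replicate 4 alone, more of the 10 genes passed than in the main fit, as did more of all genes. That fit has 1 combination library and takes its spread from the other groups. Fits of only the groups compared gave 1 each against control, against aPD-1 and for aPD-1 against control, beside 4.85%, 4.74% and 5.49% of all genes. DESeq2 gave 2 for the average, beside 7.36%. Leaving out each library gave 3 to 6 higher genes against YH29407, 0 to 5 against control, 0 to 5 against aPD-1, 1 to 2 for the average and 0 to 2 for the interaction, and 0 to 1 lower for YH29407 against control. The 0 stood without control replicate 5 against control, without aPD-1 replicate 3 against aPD-1, and without either aPD-1 replicate 3 or control replicate 3 for the interaction, and the 6 and both 5 without combination replicate 3, where 16.3%, 14.1% and 12.5% of all genes were higher. Values that crossed 0 against YH29407 were B2m (-0.00497 and -0.00499 on the TPM scales with 1 and 0.1 added) and Nlrc5 (-0.035 on either, -0.34 with combination replicate 4 alone). Leaving out each library gave -0.030 to 0.62 for H2-K1, -0.11 to 0.69 for H2-D1, -0.029 to 0.50 for Tap2, -0.11 to 0.76 for Tapbp and -0.037 to 0.25 for Nlrc5. H2-Q4 against aPD-1 was 0.047 with DESeq2, 0.048 with its size factors, 0.026 with only the groups compared, 0.14 in limma-voom and -0.20 to 0.16 when each library was left out. H2-T23 spanned -0.58 to 0.25 for YH29407 and -0.62 to 0.22 for aPD-1 against control. The cause of these shifts was not tested. DESeq2 size factors moved the median of all genes against YH29407 to 0.10, and without the low-count filter it was 0.20.

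Same-numbered libraries did not deviate together (r of -0.003 to 0.209), so the numbers were not taken as pairs. With the replicate block, 0 of the 10 genes were higher against YH29407, 0 against control and 1 against aPD-1. The count was 0 for the average and 0 for the interaction. Of all genes, 1.93%, 1.18%, 2%, 1.2% and 1.38% were higher in these 5 comparisons, against 10.6%, 6.98%, 5.76%, 5.17% and 3.78% in the main fit. Few genes of any kind passed with the block, so its counts cannot decide whether the 10 genes differ. YH29407 replicate 1, combination replicate 2 and control replicate 5 share their number with no other library, so the block fits them exactly. With the block, H2-T23 had a log2 fold change of 0.96 against YH29407, and Nlrc5 -0.077.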
